A study of Mus musculus with 20 samples.

Results

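Mouse lenses of a genotype labelled as a knockout of E2F1, E2F2 and E2F3 were compared between late embryonic life (E17.5, counted in days of gestation) and the day of birth (P0). The comparison took the 10 arrays of the series' 20 whose titles name the knockout genotype, 5 at each stage. The knockout animals carried a Cry-Cre transgene, null alleles of E2F1 and E2F2 (E2F1-/- E2F2-/-) and floxed E2F3 alleles (E2F3f/f). The other 10 arrays were controls of genotype E2F2-/-, again 5 at E17.5 and 5 at P0, so loss of E2F2 was common to all 4 groups, while Cre was in the knockout groups only. The labels do not say which crystallin promoter drove Cre, when E2F3 was recombined, or which animals shared a litter. Each array was hybridised with RNA from both lenses of 1 mouse. P-values therefore measure the spread between mice. According to the design text, the series asked what precedes the breakdown of lenses without these factors around birth.

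E2F1, E2F2 and E2F3 are transcription factors that switch on genes of DNA replication and cell division when the retinoblastoma protein releases them. In the lens, an anterior sheet of epithelial cells divides, and its progeny leave the cell cycle at the equator and elongate into fibre cells filled with crystallins. Around birth the fibre mass grows while the share of dividing cells falls, and developing fibres lie close to the ciliary body and the retina.

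The labels name epithelial cells, but the arrays carried strong fibre signals. The mean log2 level of 8 alpha and beta crystallins was 14.1 to 14.5 in knockout E17.5 arrays and 14.55 to 14.64 in knockout P0 arrays, against array medians of 5.05 to 5.25. Epithelial genes were present as well, with a mean level of 25 of them between 8.42 and 9.06. The RNA thus held signals of both cell types, which does not show how much of the lens was taken. Markers of the tissues around the lens were among the genes tested. On the array, 17 of 19 retinal transcription factors and 14 of 16 pigment cell genes passed the filter on low values. So did 14 of 16 ciliary body and iris genes, 15 of 20 macrophage genes and 11859 of all 18193 genes. The filter asked for a level above the array median in at least 5 of 20 arrays, control arrays included. Passing it is not a detection call. In RNA from a mix of cell types, fewer cells of a type and less RNA per cell cannot be told apart.

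The 4 promoters shown here belong to genes that fell from E17.5 to birth in knockout lenses and carry the 8-base motif by which E2F proteins are known to bind DNA. They were the called replication and mitosis genes of smallest adjusted p with a match. The motif was searched on both strands as TTTCCCGC, TTTCGCGC, TTTGCCGC or TTTGGCGC in the 250 bases before the gene's start, and capitals mark the match. Sequences and coordinates are RefSeq's on GRCm38.p6. Cdc6, which loads the replicative helicase, lies on the plus strand, and its window is chr11:98907901-98908150. Cdk1, the kinase that drives entry into mitosis, lies on the minus strand, with the window chr10:69352913-69353162. Uhrf1, which keeps DNA methylated after replication, lies on the plus strand, with 1 of its 2 listed windows at chr17:56304063-56304312. Pola1, the catalytic subunit of the polymerase that starts new strands, lies on the minus strand, with the window chrX:93632156-93632405.
Cdc6: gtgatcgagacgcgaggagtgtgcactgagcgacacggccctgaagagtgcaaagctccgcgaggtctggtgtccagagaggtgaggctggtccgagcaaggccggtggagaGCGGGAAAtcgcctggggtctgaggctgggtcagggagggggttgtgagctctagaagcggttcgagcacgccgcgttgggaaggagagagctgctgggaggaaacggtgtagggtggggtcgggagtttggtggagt
Cdk1: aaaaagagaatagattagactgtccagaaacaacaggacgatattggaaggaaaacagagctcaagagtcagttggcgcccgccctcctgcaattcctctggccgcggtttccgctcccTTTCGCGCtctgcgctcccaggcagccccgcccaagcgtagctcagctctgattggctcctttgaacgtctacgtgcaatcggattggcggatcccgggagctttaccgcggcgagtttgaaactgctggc
Uhrf1: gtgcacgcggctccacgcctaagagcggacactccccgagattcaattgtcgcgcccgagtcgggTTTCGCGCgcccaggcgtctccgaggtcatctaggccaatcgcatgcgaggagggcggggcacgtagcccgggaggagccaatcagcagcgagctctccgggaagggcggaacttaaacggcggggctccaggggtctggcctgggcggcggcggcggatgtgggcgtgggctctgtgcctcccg
Pola1: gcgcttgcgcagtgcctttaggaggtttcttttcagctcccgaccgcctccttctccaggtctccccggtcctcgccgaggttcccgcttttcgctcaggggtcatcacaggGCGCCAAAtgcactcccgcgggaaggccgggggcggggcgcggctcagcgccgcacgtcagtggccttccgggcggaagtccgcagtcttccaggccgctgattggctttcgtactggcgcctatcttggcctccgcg

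The match began 138 bases before the start in Cdc6, 131 in Cdk1, 185 in Uhrf1 and 138 in Pola1. A match describes letters and is not a binding site by itself. The motif was in 1.86% of all 32851 promoter windows and in 377 of the 9603 tested genes with a window (3.93%). Of the genes that fell in knockout lenses, 51 of 859 with a window had it (5.94%), and of those that rose 20 of 544 (3.68%). Of the genes that fell in control lenses, which kept E2F1 and E2F3, 124 of 2428 had it (5.11%). In the list of replication genes 12 of 39 had it (30.8%), and in that of mitosis genes 3 of 42 (7.14%). It was in 4 of 23 DNA repair genes (17.4%), 1 of 19 cholesterol and fatty acid synthesis genes (5.26%) and 0 of 15 nucleotide synthesis genes.

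Knockout arrays varied among themselves, and more so at E17.5. The mean correlation of an array with its own group lay between 0.955 and 0.978 for E17.5 and between 0.979 and 0.987 for P0, against 0.990 to 0.993 in controls. The median SD of a gene was 0.204 at E17.5 and 0.150 at P0, against 0.096 and 0.103 in the controls of these stages. At E17.5, replicates 24 and 27 lay nearer to control E17.5 arrays (mean correlation 0.985 and 0.990) than to the rest of their group (0.969 and 0.972), and replicate 28 had the lowest correlation with its group. In knockouts, the 5' to 3' signal ratios of Gapdh and actin, the 18S signal and the array median did not pass between the stages (exact two-sided permutation tests unadjusted p from 0.175 to 0.722, adjusted p of 0.698 or more). Control arrays were not tested for these properties. Their 18S signal did not overlap between stages, at 8.72 to 9.39 for E17.5 and 9.73 to 10.18 for P0. Xist, which marks lenses of females, exceeded 8 (log2) in all 5 knockout P0 arrays and in 4 of the 5 from E17.5.

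Of the targeted genes, E2f3 mRNA fell with stage, and E2f1 and E2f2 did not pass. E2f3 lay at 8.40, 8.49, 8.54, 8.46 and 8.02 (log2) in E17.5 replicates 24 to 28, and at 7.85, 7.83, 7.84, 7.99 and 8.22 in P0 replicates 17, 18, 19, 21 and 22. The stages overlapped through E17.5 replicate 28 and P0 replicate 22. The change was -0.44 ± 0.12 (SE, limma, adjusted p = 0.0321), a fall by 1.35-fold, and in controls E2f3 fell by 0.45 ± 0.06 as well. The call of E2f3 was lost without any of P0 replicates 17, 18, 19 and 21 or E17.5 replicates 24, 25, 26 and 27. A dimmer E2f3 probe set changed by 0.02. E2f1 lay between 7.55 and 7.95 at E17.5 and between 7.62 and 7.91 at P0, with a change of -0.02 ± 0.10 (adjusted p = 0.912). All 10 knockout values of E2f1 were above those of the controls, which lay between 7.15 and 7.52. The E2f3 mean was 8.38 in knockouts and 8.46 in controls at E17.5, and 7.95 and 8.01 at P0. E2f2 lay between 6.15 and 6.31 and between 6.12 and 6.33, with a change of -0.01 ± 0.08 (adjusted p = 0.966). The position of these probe sets relative to the deleted stretches was unknown here, and their signals thus give no check of the genotype. Of the other family members, E2f5, which mostly acts as a repressor, fell by 0.69 ± 0.12 (adjusted p = 0.00928) without overlap between stages, while its other probe sets changed by -0.53 and 0.28. Rbl1, the pocket protein p107, fell by 0.67 ± 0.18 (adjusted p = 0.0344), a call lost without P0 replicates 17, 18 or 19 or E17.5 replicates 25 or 26. In all, 0 rose and 3 fell of 16 E2F, DP and pocket protein genes (18.8% lower, against 8.77% of all genes tested).

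From E17.5 to birth, the signals of Nrl, Crybb2, Pdc and Cirbp rose in the knockout samples. Those of Dancr, Skp2, Exo1 and a part of the mitosis and cholesterol synthesis genes fell. Nrl was below the array median in all 5 E17.5 arrays, Pdc in 3 of them, and Exo1 in 4 of 5 P0 arrays. Of 11859 genes tested, 1728 passed (14.6%), 688 higher at P0 (5.8%) and 1040 lower (8.77%). A gene passed at a limma adjusted p below 0.05, and all folds are 2 to the power of the log2 change. Among those that passed, 39 rose (0.329% of genes tested) and 32 fell (0.27%) by at least 2-fold. The 5 arrays of one stage all lay above those of the other for 1394 genes (11.8%), of which 1119 also passed (9.44%). The direction of the calls moved with the scaling. It was 898 higher and 685 lower after quantile normalization, and 371 higher and 1308 lower with each array centred on its median. The count depended on single arrays: it was 448, 633 and 440 without P0 replicates 17, 18 and 19, 742 and 668 without E17.5 replicates 25 and 26, and 2716 without E17.5 replicate 28. A set of 394 genes, 110 higher and 284 lower, was called with all arrays and without any one of the 10, and 381 of them did not overlap between stages.

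**Figure D1:**
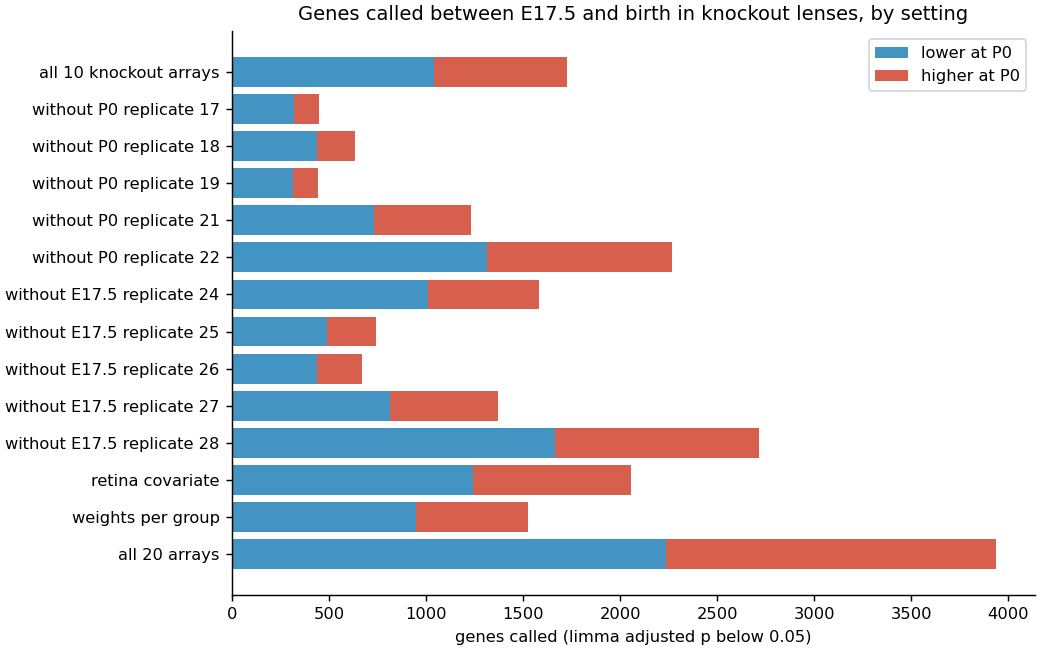
Number of genes called between E17.5 and birth in knockout lenses (x axis), split into lower (blue) and higher (red) at P0, for the fit of all 10 arrays and for other settings of the fit. The count is 1728 with all 10 arrays, 440 without P0 replicate 19, 2716 without E17.5 replicate 28 and 3940 when the control arrays share the estimate of the spread.

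The same stage change in control lenses, which shares no array with the knockout comparison, called 4431 of 11859 genes (37.4%), 1480 higher (12.5%) and 2951 lower (24.9%). Changes of at least 2-fold were called for 25 rises (0.211%) and 88 falls (0.742%). The median standard error of a change was 0.065 in controls and 0.116 in knockouts, so the counts of calls are not a measure of the number of genes that changed. Both genotypes called 1005 genes, 1000 of them in the same direction, which is 57.9% of the knockout calls and 22.6% of the control calls. Across the 11859 genes the changes of both genotypes correlated with r = 0.545 (Pearson) and rho = 0.576 (Spearman). This is a description across genes, which are not independent replicates. Opposite directions were called for 5 genes. Cep350, of the centrosome, fell by 0.34 in knockouts and rose by 0.26 in controls, and Nbeal1 fell by 0.49 and rose by 0.17. Thoc2l fell by 0.39 and rose by 0.25, Zcchc7 fell by 0.53 and rose by 0.24, and Tpd52l1 rose by 0.59 and fell by 0.27. All 5 lost the knockout call without P0 replicates 17, 18 or 19.

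No gene passed for the difference of the stage changes between genotypes (limma on all 20 arrays with a weight per group). At an unadjusted p below 0.05 there were 1744 genes (14.7%), the smallest adjusted p was 0.0543, shared by 10 genes, and 21 genes passed without weights. Single genes below are therefore not shown to change differently in knockout and control lenses. The values furthest from equal are given for 8 genes, the 4 of smallest p in each direction. Aars, alanyl-tRNA synthetase, changed by -0.08 ± 0.14 in knockouts and by -0.85 ± 0.04 in controls, a difference of 0.77 (unadjusted p = 5.76e-06). Mars1 and Yars, which charge tRNA with methionine and tyrosine, changed by 0.08 and 0.25 in knockouts and by -0.49 and -0.36 in controls. Ecrg4, a secreted peptide precursor, changed by 1.26 and 0.22, with a knockout signal below the array median in 2 E17.5 arrays. On the other side, Col4a3, a chain of basement membrane collagen, changed by 0.23 ± 0.25 in knockouts and by 1.90 ± 0.14 in controls, a difference of -1.66 (unadjusted p = 3.02e-05). Its knockout signal was below the array median in 2 E17.5 arrays and 1 P0 array. Ice2 changed by -0.85 and -0.11, Zmym2 by -0.66 and -0.12, and Nbeal1 as given above. The adjusted p was 0.0543 for Aars, Col4a3, Ice2, Nbeal1 and Zmym2, 0.0598 for Ecrg4 and 0.109 for Mars1 and Yars.

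**Figure D2:**
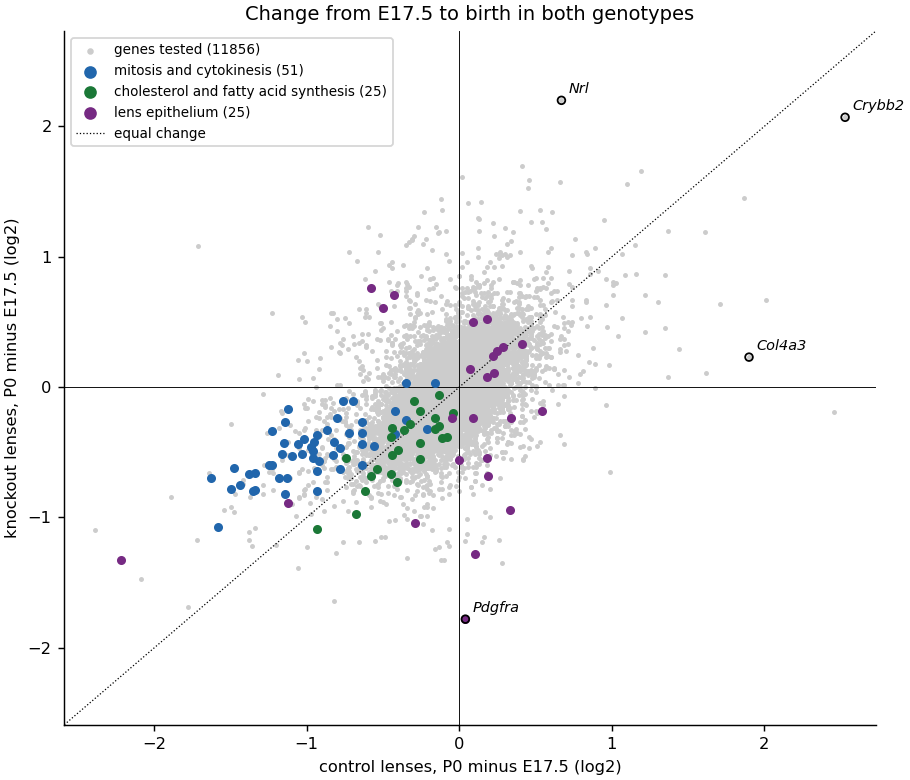
Change of each gene from E17.5 to P0 (log2) in knockout lenses (y axis) against control lenses (x axis), 1 grey point per tested gene, with the mitosis, cholesterol synthesis and lens epithelium lists in colour and the dotted line marking equal change; 3 sex-linked genes are not drawn. Mitosis genes lie to the lower left and mostly above the line, with medians of -0.47 in knockouts and -0.96 in controls, and cholesterol genes lie near the line, with medians of -0.39 and -0.36.

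The rise of largest size was that of Nrl. Nrl, the transcription factor that commits photoreceptors to the rod fate, lay at 3.77, 3.87, 4.08, 3.62 and 3.81 in E17.5 replicates 24 to 28, and at 6.04, 6.09, 5.73, 6.39 and 5.89 in P0 replicates 17, 18, 19, 21 and 22. It was below the array median in all 5 E17.5 arrays and above it in all 5 P0 arrays. The rise in signal was 2.20 ± 0.13 (SE, adjusted p = 2.28e-05). The files give no detection calls, so whether a signal below the array median was above background is unknown; a change and a rank that rest on such a signal are differences in signal, and no fold is given. Nrl passed the filter on low values through the P0 arrays, where it was high. Pdc, phosducin, which regulates transducin in photoreceptors, lay at 4.77, 5.55, 5.36, 5.03 and 5.0 at E17.5 and at 6.99, 6.92, 6.34, 7.36 and 6.58 at P0. It was below the array median in 3 of 5 E17.5 arrays. Its rise was 1.7 ± 0.20 (adjusted p = 0.0034). In controls Nrl changed by 0.67 ± 0.31 (adjusted p = 0.107) and Pdc by 0.41 ± 0.38 (adjusted p = 0.418), with wide spreads at P0, Nrl from 3.99 to 5.59 and Pdc from 4.68 to 6.86. The difference between genotypes had an unadjusted p of 0.00515 for Nrl and 0.0498 for Pdc, and neither passed after adjustment. Both genes were called without any one of the 10 knockout arrays.

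Rrh, an opsin of the pigment epithelium, rose by 1.34 ± 0.30 (adjusted p = 0.0200), from a range of 4.30 to 6.11 to a range of 6.34 to 7.0. Rrh was below the array median in 2 of 5 E17.5 arrays. Its call was lost without P0 replicates 17, 18 or 19. Plekhb1, a membrane protein abundant in photoreceptors, rose by 1.22 ± 0.26. Fabp7, the fatty acid binding protein of radial glia, rose by 1.61 ± 0.34, from a range of 5.62 to 7.03 to one of 7.15 to 8.85. Dclk1, a microtubule-binding kinase of neurons, rose by 1.44 ± 0.38, a call lost without P0 replicates 17, 18 or 19 or E17.5 replicates 25 or 27. Leaving out both E17.5 replicates 24 and 27, where Dclk1 was lowest (6.02 and 6.48), gave a rise of 0.77, and Rrh then rose by 0.83.

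Of 17 retinal transcription factors only Nrl passed (5.88% against 5.8% higher among all genes, 0 fallen, median change 0.21), and of 18 photoreceptor, glial and neuronal markers only Sag, arrestin of rods, passed, with 4 of 5 E17.5 arrays below the array median, at 0.54 ± 0.11 (5.56%, median change -0.15), a call lost without P0 replicates 17 or 19. Their level varied between arrays within a stage. The mean level of the retinal transcription factors was 5.99, 7.90, 7.60, 6.34 and 7.08 in E17.5 replicates 24 to 28 and 6.93, 7.35, 6.78, 7.72 and 6.81 in P0 replicates 17, 18, 19, 21 and 22. The stages overlapped, with the lowest values in E17.5 replicates 24 and 27 and the highest in E17.5 replicate 25. With the mean of the 35 retina genes of both lists, Nrl and Sag among them, as a covariate, Nrl rose by 2.18, Pdc by 1.66, Fabp7 by 1.55, Dclk1 by 1.39, Rrh by 1.29 and Plekhb1 by 1.18, and 2054 genes passed in all. The mean level of the transcription factors was 6.98 at E17.5 and 7.12 at P0, and that of the other list 7.22 at both stages. A covariate so alike between the stages can change a stage difference little, and it does not test the part of retinal cells.

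**Figure D3:**
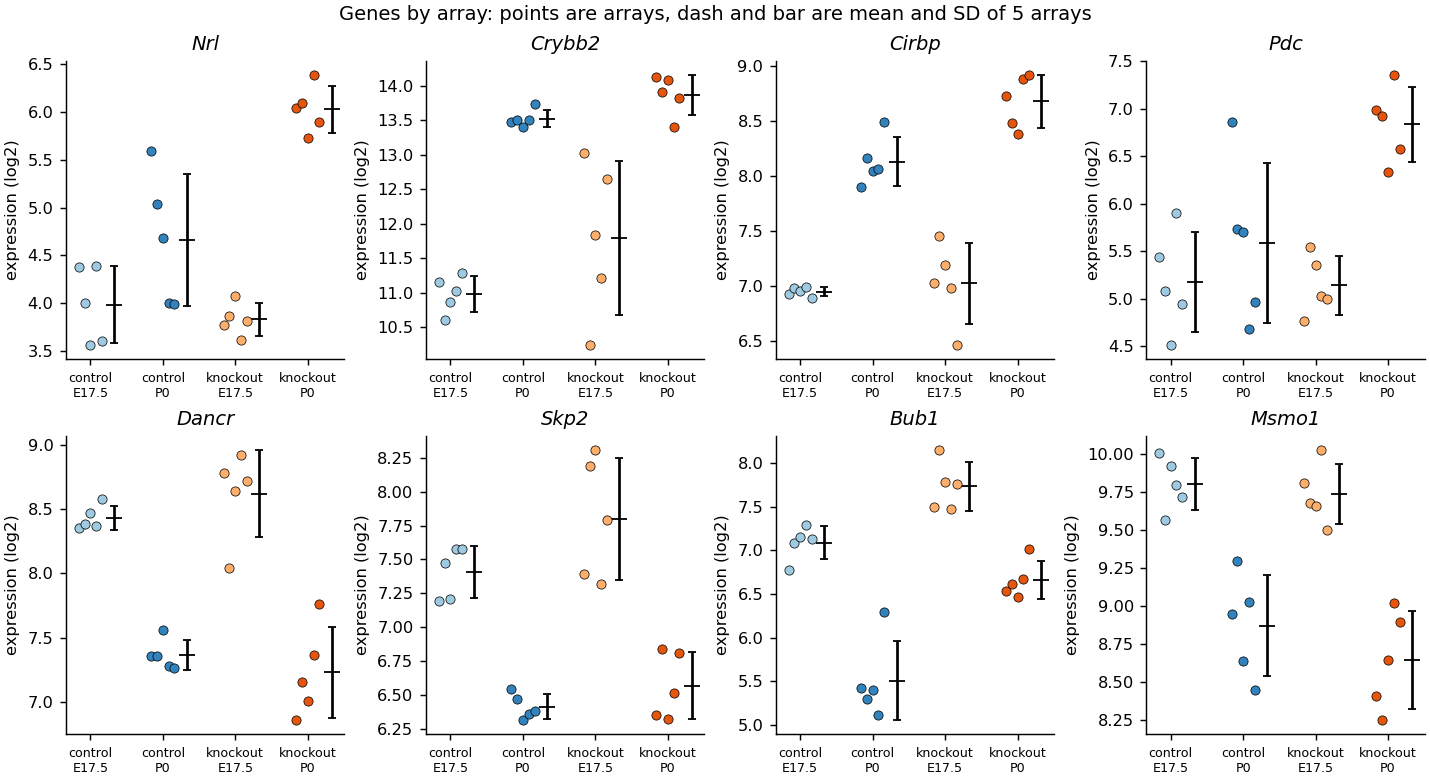
Log2 expression (y axis) of 8 genes in each array, grouped by genotype and stage, with mean and SD of 5 arrays beside the points. In knockout lenses the 5 P0 arrays lie above the 5 E17.5 arrays for Nrl, Crybb2, Cirbp and Pdc and below them for Dancr, Skp2, Bub1 and Msmo1.

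Of 14 pigment cell markers 3 rose and 0 fell (21.4% higher against 5.8% of all genes), and 11 did not pass. All 14 changes were above 0, and the median was 0.76, against -0.03 over all genes. Ttr, transthyretin, made by the pigment epithelium, rose by 0.76 ± 0.10 (adjusted p = 0.00355), Rdh5, a retinol dehydrogenase of the visual cycle, by 0.45 ± 0.10 and Sox10, a factor of melanocytes, by 0.30 ± 0.08. Sox10 lost its call without P0 replicates 17, 18, 19 or 21 or E17.5 replicates 25 or 26, and Rdh5 without P0 replicates 17 or 19 or E17.5 replicates 25 or 26. The mean level of the list was 6.27, 7.57, 7.32, 6.25 and 7.57 in E17.5 replicates 24 to 28 and 7.88, 7.92, 7.97, 7.37 and 7.58 in P0 replicates 17, 18, 19, 21 and 22. E17.5 replicates 24 and 27 were more than 1 log2 unit below the other 3 arrays of their stage, and the stages overlapped, P0 replicate 21 lying below E17.5 replicates 25 and 28. In controls 2 pigment genes rose and 2 fell (against 12.5% higher and 24.9% lower among all genes), with a median of -0.06.

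Markers of other neighbouring tissues differed between arrays within a stage. Of 14 ciliary body and iris genes 0 passed limma's test, with 4 at an unadjusted p below 0.05, and of 15 macrophage genes 0 passed, with 0 at that level. The share of all genes at that level is not given here, so these counts have no reference. The mean ciliary level ranged from 8.05 to 9.66 in E17.5 arrays and from 8.79 to 9.5 in P0 arrays, and the macrophage level from 5.98 to 7.83 and from 6.21 to 7.11. Bmp4, a growth factor of the ciliary margin, lay at 6.73, 8.37, 8.71, 6.95 and 9.53 at E17.5 and at 9.70, 9.44, 9.51, 8.29 and 9.49 at P0, a change of 1.23 ± 0.50 (adjusted p = 0.114). Without E17.5 replicate 28, Bmp4 was called at 1.60, as was Optc, opticin of the ciliary body, at 1.87. These were the largest changes of any setting. Across settings the change ranged from 0.42 to 1.60 for Bmp4 and from 0.47 to 1.87 for Optc. Each was called in 3 of the 24 settings besides the main one. Of 23 endothelium and pericyte genes 1 rose (4.35% against 5.8% of all genes). It was the filament gene Des, by 0.45 ± 0.11, a call lost without P0 replicates 17, 18 or 19 or E17.5 replicates 25 or 26. E17.5 replicate 28 stood apart with an endothelial mean level of 8.36, where the other 9 knockout arrays lay between 6.52 and 7.28, and a macrophage level of 7.83, where they lay between 5.98 and 7.11. The red cell gene Slc4a1 fell by 1.22 ± 0.32, with all 5 P0 arrays below the array median, and it was highest in E17.5 replicates 25 and 28 (6.30 and 6.53). Its call was lost without P0 replicates 17, 18, 19 or 21 or E17.5 replicates 25 or 26. Few markers of blood, cornea and muscle were above the filter (5 of 11, 7 of 19 and 3 of 12 on the array). They had 1, 1 and 2 rises (20%, 14.3% and 66.7% against 5.8% of all genes). Falls numbered 1, 0 and 0 (20%, 0% and 0% against 8.77%). The 2 muscle rises were Des, which is also on the endothelium list, and Ckm. Ckm was below the array median in all 5 E17.5 arrays and in 2 P0 arrays. What part these cells have in the other results was not tested, and neither the retina covariate nor the fits without single arrays can decide it.

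**Figure D4:**
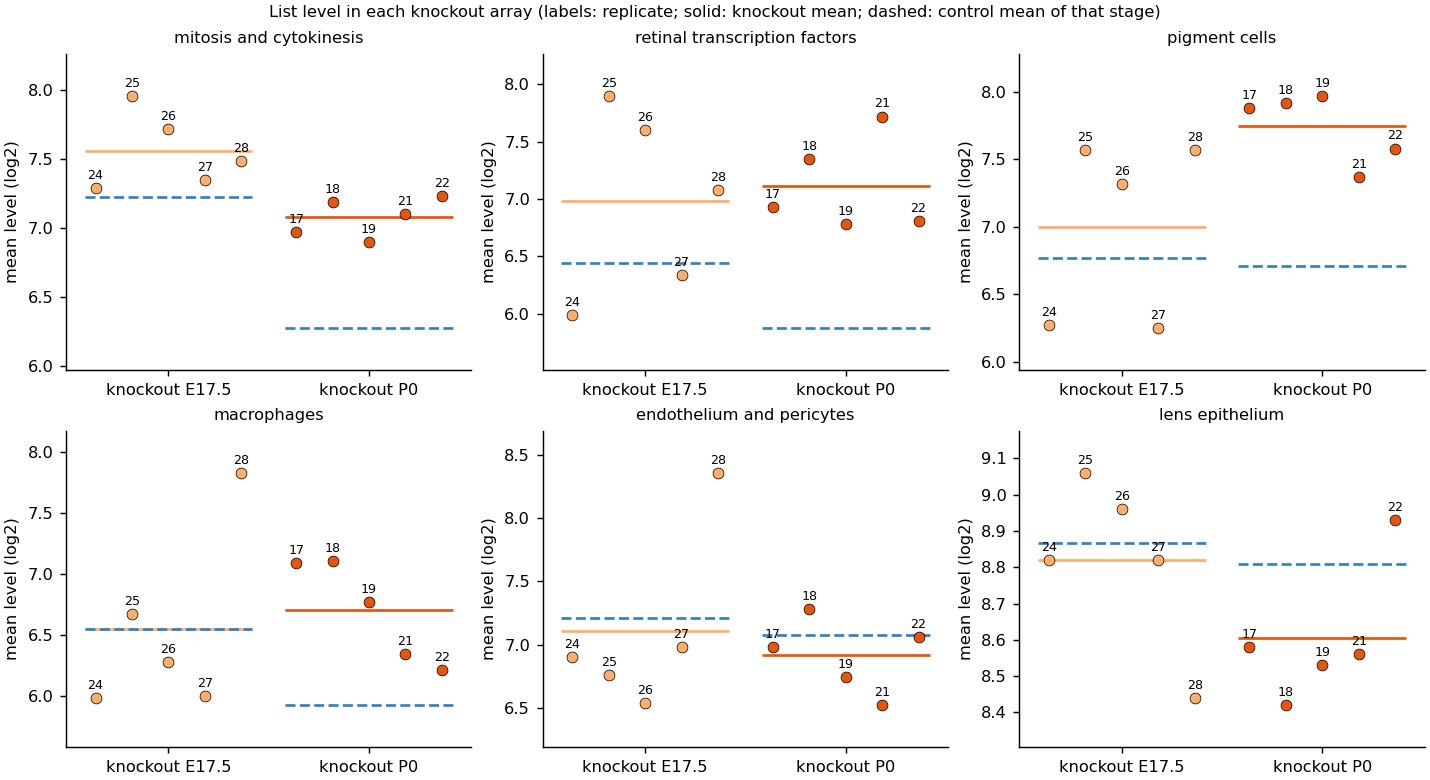
Mean log2 level (y axis) of 6 gene lists in each knockout array, labelled by replicate, with the knockout mean as a solid line and the control mean of that stage as a dashed blue line. The mitosis list is lower in all 5 P0 arrays, the pigment list is lowest in E17.5 replicates 24 and 27, and macrophage and endothelium lists are highest in E17.5 replicate 28.

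Of 51 genes of mitosis, 21 fell and 0 rose from E17.5 to birth in knockout lenses (41.2% against 8.77% of all genes), 49 changes were below 0, and the median was -0.47. In controls 50 of 51 fell (against 24.9% of all genes), with a median of -0.96. The difference between genotypes was above 0 for 50 of 51 genes, with a median difference of 0.51. At an unadjusted p below 0.05 there were 18 genes (against 14.7% of all genes), and 0 passed after adjustment. The mean level of the list was 7.29, 7.96, 7.72, 7.35 and 7.49 in E17.5 replicates 24 to 28 and 6.97, 7.19, 6.90, 7.10 and 7.23 in P0 replicates 17, 18, 19, 21 and 22. The stages did not overlap. The number of fallen mitosis genes was 2 without P0 replicate 17, 9 without 18, 2 without 19 and 13 without 21, and it was 7 and 5 without E17.5 replicates 25 and 26. It was 33 with the retina covariate and 34 without both E17.5 replicates 24 and 27.

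Bub1, a kinase of the spindle checkpoint, lay at 7.49, 8.15, 7.78, 7.47 and 7.76 at E17.5 and at 6.53, 6.61, 6.46, 6.67 and 7.02 at P0. It fell by 1.07 ± 0.14 (SE, adjusted p = 0.00389) and by 1.58 ± 0.19 in controls, and was called without any one array. Ube2c, which marks cyclins for degradation at the exit from mitosis, fell by 0.70 ± 0.15 in knockouts and by 1.63 ± 0.23 in controls, with the same stability. Plk4, which starts centriole duplication, fell by 0.80 ± 0.17, and Prc1, which bundles microtubules in cytokinesis, by 0.70 ± 0.15. Both lost the call without P0 replicates 17 or 19. Genes chosen after their values were seen, Cdk1, Top2a and Mki67, had changes of -0.75 (adjusted p = 0.0247), -0.79 (adjusted p = 0.0249) and -0.53 (adjusted p = 0.0860), with -1.44, -1.34 and -1.10 in controls. Top2a lost its call without P0 replicates 17, 18 or 19 or E17.5 replicates 25 or 26.

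Of 48 replication genes 7 fell and 1 rose (14.6% lower against 8.77% of all genes), 42 changes were below 0, and the median was -0.31. In controls 39 fell and 1 rose (against 24.9% lower and 12.5% higher among all genes), with a median of -0.56. Without both E17.5 replicates 24 and 27, where the list was low (mean level 8.04 and 7.87 against 8.30 to 8.61 in the other E17.5 arrays), 28 replication genes fell. Without 1 array the count of falls was between 2 and 15, at 2, 4 and 3 without P0 replicates 17, 18 and 19, at 2 and 2 without E17.5 replicates 25 and 26, and at 15 without 27. Cdc7, the kinase that fires licensed origins, lay at 7.13, 7.76, 7.73, 7.15 and 7.67 at E17.5 and at 6.60, 6.74, 6.48, 6.57 and 6.52 at P0. It fell by 0.91 ± 0.14 (adjusted p = 0.00619) and by 0.82 ± 0.09 in controls, and another of its probe sets changed by -0.29. Pole2, a polymerase subunit, fell by 0.84 ± 0.16, and both genes were called without any one array. Rpa3, which coats single-stranded DNA, fell by 0.78 ± 0.18, a call lost without P0 replicate 17 or E17.5 replicates 25 or 26.

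The genes whose promoters are shown above were among these falls. Cdc6 lay at 5.46, 6.32, 6.09, 5.03 and 5.70 at E17.5 and at 4.15, 4.78, 4.15, 5.16 and 4.80 at P0, with E17.5 replicate 27 and P0 replicate 21 overlapping. All 5 P0 values were below the array median. The signal fell by 1.11 ± 0.26 (adjusted p = 0.0226), and the call was lost without P0 replicates 17 or 19 or E17.5 replicates 25 or 26, as for Cdk1. Uhrf1 fell by 0.82 ± 0.21 and Pola1 by 0.58 ± 0.17 (adjusted p = 0.0298 and 0.0415), and both lost the call without P0 replicates 17, 18 or 19 or E17.5 replicates 25 or 26, Pola1 also without P0 replicate 21 or E17.5 replicates 24 or 28. The one riser, Dbf4, the partner of Cdc7, rose by 0.34 ± 0.10 (adjusted p = 0.0481) and was called without P0 replicates 21 or 22 but not without any other array. Pcna, the sliding clamp, and Mcm5, of the helicase, both picked after their values were seen, changed by -0.38 and -0.50 (adjusted p = 0.129 and 0.191).

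Among the 16 genes listed as G1 and S phase cyclins and kinases, 4 fell and 0 rose (25% against 8.77% of all genes). Skp2, which targets the CDK inhibitor p27 for degradation, lay at 7.39, 8.19, 8.31, 7.32 and 7.79 at E17.5 and at 6.35, 6.84, 6.32, 6.51 and 6.81 at P0. It fell by 1.23 ± 0.20 (adjusted p = 0.00783), or 2.35-fold, and by 1.0 ± 0.09 in controls. Of 5 other Skp2 probe sets 4 changed by -1.03 to -1.16 and 1 by -0.26. Ccne2, cyclin E2, fell by 0.55 ± 0.09, and both genes were called without any one array. Of 15 genes of nucleotide synthesis 5 fell (33.3% against 8.77%), among them Cad, the enzyme that starts pyrimidine synthesis, by 0.61 ± 0.12, and Tk1, thymidine kinase, by 0.64 ± 0.15. The list had 1 fall without each of P0 replicates 17, 18 and 19 and E17.5 replicate 25. Of 6 CDK inhibitors 1 fell and 1 rose (16.7% each, against 8.77% and 5.8%): Cdkn2d (p19) fell by 0.35 ± 0.07 and Cdkn2c (p18) rose by 0.66 ± 0.17, the latter call lost without P0 replicates 17, 18 or 19 or E17.5 replicates 25 or 26.

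Falls outnumbered rises among DNA repair genes in both genotypes. Of 29, 7 fell and 0 rose in knockouts (24.1% lower against 8.77% of all genes), with a median of -0.34. In controls 18 fell and 1 rose (against 24.9% lower and 12.5% higher among all genes), with a median of -0.36. Exo1, a nuclease of mismatch and break repair, lay at 5.80, 6.71, 6.36, 5.78 and 5.97 at E17.5 and at 4.82, 5.30, 4.75, 4.83 and 5.06 at P0, a fall by 1.17 ± 0.18 (adjusted p = 0.00677), with 4 of 5 P0 arrays below the array median. Xrcc6 and Xrcc5, the Ku proteins that hold broken ends, fell by 0.55 ± 0.08 and 0.58 ± 0.11, and Lig4, the ligase that joins them, by 0.65 ± 0.13. These 4 genes were called without any one array. Rad52, a recombination protein outside the list, fell in signal by 1.15 ± 0.11, to levels of 4.44 to 4.99 that were below the array median in all 5 P0 arrays, and a dimmer Rad52 probe set changed by -0.44.

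Of 34 genes of the p53 pathway 1 rose and 2 fell (2.94% and 5.88% against 5.8% and 8.77% of all genes), with a median of -0.01. Ddit4, an inhibitor of mTOR signalling, fell by 0.97 ± 0.21, a call lost without P0 replicate 19, and by 0.97 ± 0.12 in controls. Mdm4, which restrains p53, fell by 0.42 ± 0.09 in knockouts and changed by 0.06 ± 0.07 in controls, a difference with an unadjusted p of 0.00105, while the mean of its probe sets changed by -0.02. Perp, a desmosome protein induced by p53, rose by 0.72 ± 0.20, a call lost without any P0 replicate or without E17.5 replicates 25 or 26. Cdkn1a, the CDK inhibitor p21, chosen after its values were seen, lay at 7.36, 8.48, 7.82, 5.60 and 8.28 at E17.5 and at 8.41, 8.48, 8.06, 6.15 and 6.90 at P0. Each stage had low and high arrays, and the change was 0.09 ± 0.58. Of 26 genes of the Bcl2 family and caspases (3.85% in each direction), 1 rose, Hrk, by 0.30 ± 0.09 (adjusted p = 0.0499), and 1 fell, Aifm1, by 0.38 ± 0.11 (adjusted p = 0.0449). Both calls were lost without P0 replicates 17, 18, 19 or 21 or E17.5 replicates 25 or 26, Hrk also without E17.5 replicates 24 or 27, and Aifm1 without 28.

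**Figure D5:**
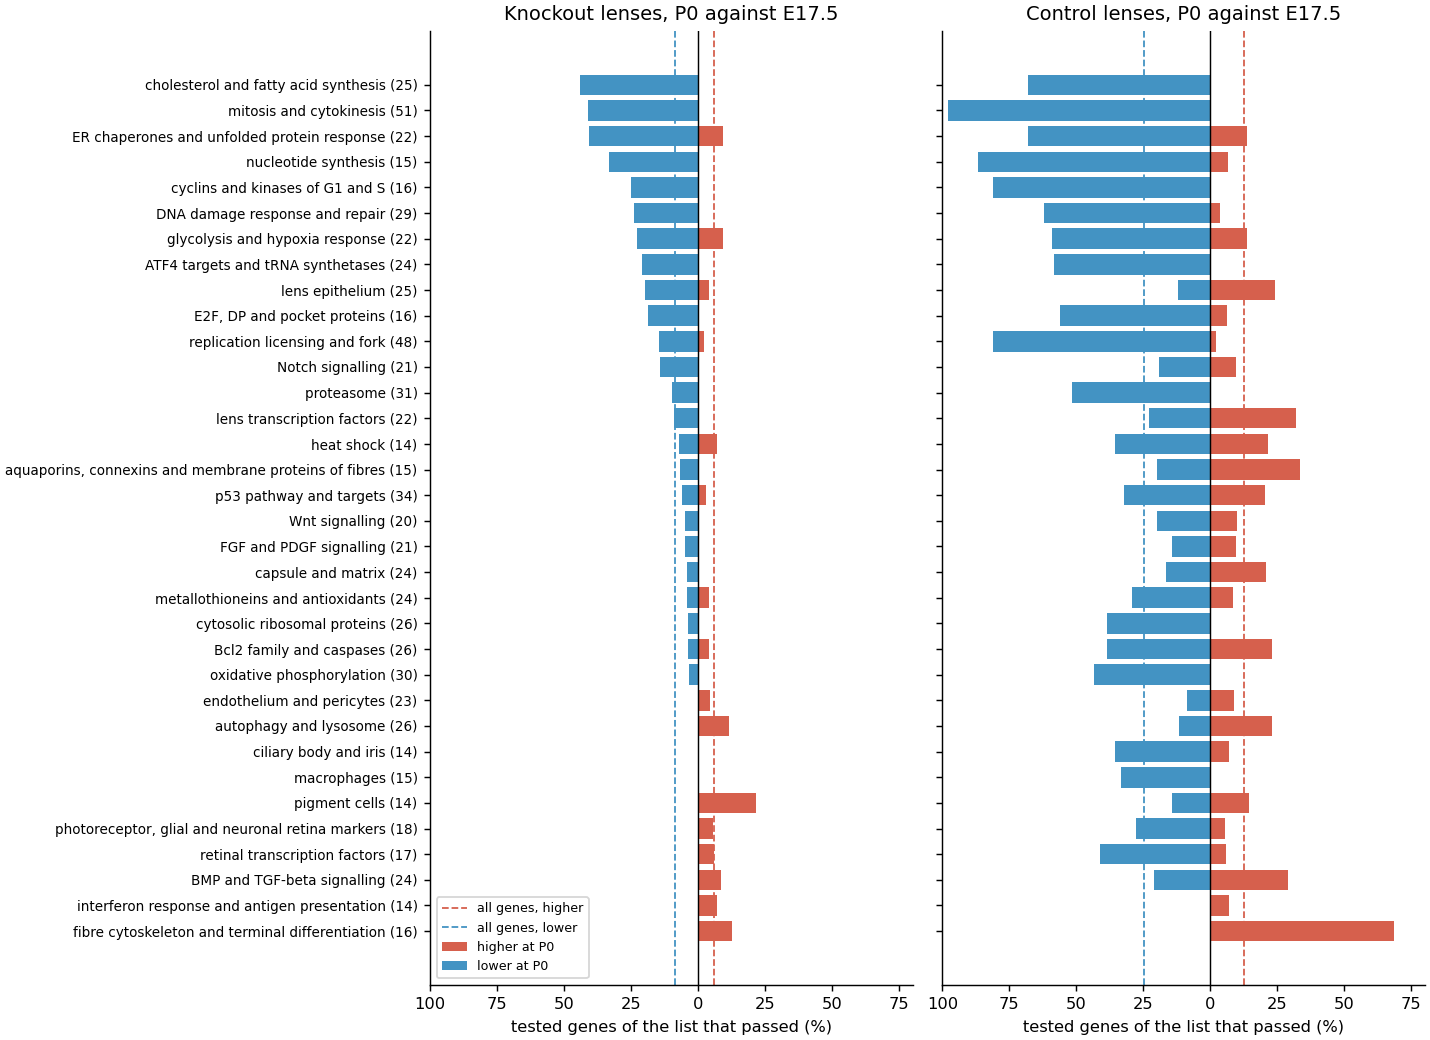
Percent of the tested genes of each list (number in brackets) that passed as higher (red, right) or lower (blue, left) at P0, in knockout lenses (left panel) and control lenses (right panel), with dashed lines for all genes. The lists of cholesterol synthesis, mitosis and ER chaperones have the highest shares of falls in knockout lenses, and fibre genes the highest share of rises in control lenses.

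Of 25 genes of cholesterol and fatty acid synthesis 11 fell and 0 rose (44.0% against 8.77% of all genes), all 25 changes were below 0, and the median was -0.39. In controls 17 fell (against 24.9% of all genes), with a median of -0.36. Msmo1, which removes a methyl group from the sterol ring, lay at 9.81, 9.68, 9.66, 10.03 and 9.50 at E17.5 and at 8.41, 8.25, 8.65, 9.02 and 8.90 at P0. It fell by 1.09 ± 0.16 (SE, adjusted p = 0.00513), or 2.13-fold, with 0.93 ± 0.15 in controls. Hmgcs1, the synthase before the rate-limiting step, fell by 0.97 ± 0.20, Nsdhl, of the same demethylation, by 0.73 ± 0.11 and Stard4, a sterol carrier, by 0.68 ± 0.12. These 4 genes were called without any one array. The list had 5 falls without each of P0 replicates 17, 18 and 19 and E17.5 replicate 26, 6 or 7 without E17.5 replicates 24, 25 or 27, and 18 without 28, whose mean level of the list (8.47) was below the 8.90 to 8.97 of the other E17.5 arrays.

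Of 22 genes that fold proteins in the endoplasmic reticulum (ER), 9 fell (40.9% against 8.77% of all genes), 2 rose and 11 did not pass, with a median of -0.33. In controls 15 fell and 3 rose (against 24.9% lower and 12.5% higher among all genes), with a median of -0.31. The chaperone Hsp90b1 fell by 0.61 ± 0.10, the secreted ER stress proteins Manf and Creld2 by 0.72 ± 0.14 and 0.69 ± 0.12, and Xbp1, a factor of the unfolded protein response, by 0.41 ± 0.09. Ppp1r15a, which restores translation after stress, rose by 1.07 ± 0.15, from a range of 7.39 to 8.20 to one of 8.57 to 8.94, and by 0.89 ± 0.12 in controls. These 5 genes were called without any one array. The count of falls was 5, 5 and 4 without P0 replicates 17, 18 and 19, and 5 without E17.5 replicate 25. Of 24 ATF4 targets and tRNA synthetases 5 fell and 0 rose (20.8% lower), with Tars, the threonine enzyme, at -0.69 ± 0.11. In controls 14 of them fell (against 24.9% of all genes). The difference between genotypes was above 0 for 19 of 24, with 10 at an unadjusted p below 0.05 (against 14.7% of all genes) and 0 after adjustment.

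Of 22 genes of glycolysis and the hypoxia response 5 fell and 2 rose (22.7% and 9.09% against 8.77% and 5.8% of all genes). Slc2a1, the glucose transporter GLUT1, lay at 11.75, 11.91, 11.82, 11.89 and 11.93 at E17.5 and at 10.87, 11.22, 10.89, 10.95 and 11.42 at P0, a fall by 0.79 ± 0.11 (adjusted p = 0.00513), with 0.34 ± 0.08 in controls. Ldha, lactate dehydrogenase, fell by 0.63 ± 0.10 and Slc16a3, a lactate exporter, by 0.89 ± 0.13, the latter with 2 of 5 P0 arrays below the array median. Ndrg1, induced by hypoxia, rose by 1.02 ± 0.13 and Aldoc, an aldolase, by 0.87 ± 0.16. These 5 genes were called without any one array, and so was Hmox1, heme oxygenase, which rose by 0.83 ± 0.16.

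Crybb2, a beta crystallin of late fibres, lay at 13.02, 10.24, 11.84, 11.22 and 12.65 at E17.5 and at 14.13, 13.91, 14.08, 13.40 and 13.82 at P0. It rose by 2.07 ± 0.44 (adjusted p = 0.0167), or 4.21-fold, and by 2.53 ± 0.11 in controls, where the 5 E17.5 arrays lay between 10.61 and 11.28. Knockout E17.5 arrays thus spread further than those of controls, on both sides. It was the one call among 8 alpha and beta crystallins, and 0 of 6 gamma crystallins passed limma's test. Of the latter, 1 had an unadjusted p below 0.05, a count without the share of all genes beside it. Cryaa was near the top of the scale at both stages, 14.78 to 14.88 and 14.84 to 14.88. Of 16 genes of the fibre cytoskeleton and terminal differentiation 2 rose and 0 fell in knockouts (12.5% higher against 5.8% of all genes), and 11 rose and 0 fell in controls (against 12.5% of all genes), with medians of 0.27 and 0.20. Grifin, a lens galectin, rose by 0.45 ± 0.12 and Birc7, an apoptosis inhibitor, by 0.69 ± 0.16, and both lost the call without P0 replicates 17, 18 or 19, Grifin also without E17.5 replicates 25 or 26. The list had 0 rises without P0 replicates 17, 18 or 19, 1 without E17.5 replicates 25 or 26, 4 without P0 replicate 22 or E17.5 replicate 24, and 5 without E17.5 replicates 27 or 28.

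Epithelial genes of the lens moved in single genes. Of 25, 5 fell and 1 rose (a share of 5 in 25 against 8.77% of all genes), with a median of -0.18. In controls 3 fell and 6 rose (against 24.9% lower and 12.5% higher among all genes), with a median of 0.10. Pdgfra, the PDGF receptor of the epithelium, lay at 8.92, 8.52, 7.97, 9.29 and 7.16 at E17.5 and at 5.90, 5.72, 5.72, 7.54 and 8.09 at P0. P0 replicates 17, 18 and 19 were below all other arrays, and P0 replicates 21 and 22 lay within the E17.5 range. The fall was 1.78 ± 0.53 (adjusted p = 0.0473), or 3.43-fold, a call kept without P0 replicates 21 or 22 or E17.5 replicate 28 and lost without any other array. Cdh1, E-cadherin, was low in P0 replicates 17, 18, 19 and 21 and in E17.5 replicate 28, at 9.35, 9.18, 8.88, 9.42 and 7.55 at E17.5 and 7.48, 7.13, 7.38, 7.42 and 8.58 at P0. Its fall of 1.28 ± 0.37 (adjusted p = 0.0408) was called without E17.5 replicate 28 or P0 replicate 22 only. In controls these genes changed by 0.04 ± 0.17 and 0.10 ± 0.21 without passing, and the difference between genotypes had an unadjusted p of 0.00556 and 0.00761.

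Sulf1, which edits heparan sulfate, fell by 0.94 ± 0.25 and Notch2 by 0.68 ± 0.19, with changes of 0.33 and 0.19 in controls. Sulf1 was called without P0 replicate 22 or E17.5 replicate 28 and lost without any other array, and Notch2 was lost without P0 replicates 17, 18, 19 or 21 or E17.5 replicates 25, 26 or 27. Epcam, an adhesion molecule, rose by 0.52 ± 0.10 and was called without any one array, while the mean of its probe sets rose by 0.26 without a call. Of the 25 epithelial genes, 1 fell without each of P0 replicates 17, 18 and 19 and E17.5 replicates 25, 26 and 27, 2 without P0 replicate 21 or E17.5 replicate 24, and 8 without E17.5 replicate 28. Foxe3, the factor that keeps the epithelium undifferentiated, chosen after its values were seen, lay at 6.99 in E17.5 replicate 28 and between 8.84 and 9.10 in the other E17.5 arrays. Without replicate 28 Foxe3 was called at -1.44, and with it the change was -1.04 ± 0.40 (adjusted p = 0.0981). In the capsule list 1 of 24 genes passed, the laminin chain Lamb1, which fell by 0.42 ± 0.12 (adjusted p = 0.0426), a call kept only without P0 replicate 22 or E17.5 replicate 28.

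The largest falls held 2 long noncoding RNAs. Dancr lay at 8.78, 8.04, 8.64, 8.92 and 8.72 at E17.5 and at 6.86, 7.16, 7.01, 7.37 and 7.76 at P0, a fall by 1.39 ± 0.19 (adjusted p = 0.00505), or 2.62-fold, with 1.06 ± 0.07 in controls. Airn, transcribed antisense to Igf2r, fell by 1.33 ± 0.23 in knockouts and changed by -0.12 ± 0.15 in controls, a difference with an unadjusted p of 0.000703. Of the other Airn probe sets, 1 above the array median in all 10 arrays changed by -0.02 and 1 above it in 9 changed by -1.28, and 2 dimmer ones changed by -0.91 and 0.17, and the strand that these probe sets read was not checked. Taf15, an RNA-binding protein, fell by 1.31 ± 0.21, with 4 of 5 P0 arrays below the array median. Slc25a37, which brings iron into mitochondria, fell by 1.21 ± 0.20, Rpl12, a ribosomal protein, by 1.19 ± 0.17 and Frg1 by 1.18 ± 0.23. Rpl12 lay between 5.68 and 7.61, where the mean level of 26 listed ribosomal protein genes was 12.65 to 12.82. Frg1 varied widely between control E17.5 mice, at 8.40, 6.93, 8.39, 8.48 and 6.94, and changed by 0.04 ± 0.31 in controls. Senp8, which removes NEDD8 from proteins, fell by 1.18 ± 0.13, with 2 of 5 P0 arrays below the array median. Tafa4, a secreted chemokine-like protein, fell by 1.13 ± 0.14 and changed by 0.05 ± 0.12 in controls. These 8 genes were called without any one array. Matn2, a matrix protein, fell in signal by 1.19 ± 0.29, with all 5 P0 arrays below the array median (3.96 to 4.46), a call lost without P0 replicates 17, 18 or 19 or E17.5 replicate 25.

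Among the other large rises, Cirbp, an RNA-binding protein induced by cold, lay at 7.03, 7.45, 7.19, 6.98 and 6.46 at E17.5 and at 8.73, 8.48, 8.38, 8.88 and 8.92 at P0. It rose by 1.66 ± 0.17 (adjusted p = 0.0034), or 3.15-fold, and by 1.19 ± 0.09 in controls. Fbln2, a matrix fibulin, rose by 1.27 ± 0.22, Ecrg4 by 1.26 ± 0.17 and H1f2, a linker histone, by 1.20 ± 0.24. In controls H1f2 rose by 1.37 ± 0.13. These 4 genes were called without any one array, but Ecrg4 was below the array median in 2 of 5 E17.5 arrays. Penk, the enkephalin precursor, rose by 1.28 ± 0.33, a call lost without P0 replicates 17 or 21 or E17.5 replicates 26 or 27. Penk was below the array median in 1 of 5 E17.5 arrays. With the retina covariate the changes were 1.64 for Cirbp, 1.28 for Fbln2, 1.27 for Ecrg4 and 1.22 for H1f2. That covariate was nearly equal between the stages and could move them little.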

How the data were processed

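RNA of lenses from 20 mice, 5 in each of 4 groups, was measured on Affymetrix arrays. The authors deposited log2 values for 45101 probe sets, between 1.72 and 15.0; the method of normalization is not named in the sources used here. Groups were taken from the sample titles. The 64 control probe sets were left out of the tests. Of the rest, 34945 had 1 gene, 932 several and 9160 none, and 34741 symbols were updated through RefSeq (GRCm38.p6). For each of 18193 genes the probe set with the highest mean was kept, and 11859 genes above the array median in at least 5 of 20 arrays were tested. The number of mice in a group, 5, and the spread between them limit the precision, and arrays have no read depth.

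The 10 knockout arrays were fitted with limma 3.58.1 in R 4.3.3 (lmFit, eBayes), with Benjamini-Hochberg adjustment over all 11859 genes and calls at an adjusted p below 0.05. Control arrays were fitted in the same way, and the difference of the stage changes on all 20 arrays with a weight per group. Array properties were compared by exact permutation (scipy 1.17.1). The fits were tested on simulated data. The members and the 40 gene lists were chosen with earlier results of these data known. The text names the targeted genes, the 12 largest rises and falls among called genes without overlap, from every list at most 4 rises and 4 falls, ranked by adjusted p (2 members as values where none passed), and 4 genes in each direction for the difference. Genes outside this rule, chosen after their values were seen, were Cep350, Thoc2l, Tpd52l1, Zcchc7, Mt1, Cdkn1a, Cdk1, Mki67, Top2a, Mcm5, Pcna, Pax6, Foxe3, Prox1, Cryaa, Uhrf1 and Pola1. Xist, Tsix and Y-linked genes were not named among results. Alternatives covered scaling, filter, probe set choice, variance model, weights, a retina covariate and leaving out arrays.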

Additional observations from a re-analysis of the deposited data

Results flagged for a closer look

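Single arrays stood apart from the other 4 of their group in 28 of 314 sets of 5 values (8.92%), by a gap of more than 0.71 of the group's range (Dixon's 95% value for 5); chance alone marks about 1 in 20. No explanation was tested.

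E17.5 replicate 28 accounted for 12 of them. It was low for E2f3 (8.02, others 8.40 to 8.54), Cdh1 (7.55, others 8.88 to 9.42), Foxe3 (6.99, others 8.84 to 9.10), Nsdhl (8.83, others 9.23 to 9.36), Crygf (13.94, others 14.01 to 14.03) and Cryaa (14.78, others 14.87 to 14.88). It was high for Airn (7.70, others 6.46 to 6.79), Slc25a37 (8.30, others 7.09 to 7.38) and the macrophage receptor Fcgr3 (7.73, others 5.07 to 5.80), and for the mean levels of endothelium and pericytes (8.36) and of interferon response genes (7.24, others 6.17 to 6.22). Its actin 5' minus 3' value was -1.01, against -0.78 to -0.71 in the others.

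At E17.5, replicate 24 stood apart for Fbln2 (5.17), Six5 (6.46), Cdkn2d (8.44) and Hrk (5.04), and replicate 25 for Birc7 (8.64). The metallothionein gene Mt1 was 6.45 in E17.5 replicate 27 (others 10.43 to 10.91) and 8.44 in P0 replicate 21 (others 10.40 to 11.01), with a stage change of 0.46 (limma adjusted p = 0.726). P0 replicate 21 was also low for Bmp4 (8.29, others 9.44 to 9.70), Tpd52l1 (6.09) and the ciliary level (8.79). P0 replicate 22 stood apart for Cdh1 (8.58, others 7.13 to 7.48), Lamb1 (9.68, others 8.97 to 9.14) and P4ha1 (9.29). P0 replicate 18 was high for Aars (9.60) and Mcm5 (9.10, others 8.33 to 8.52), and P0 replicate 19 had a Gapdh 5' minus 3' value of 0.15.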

How the results depend on the processing

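Array number and spread, not read depth, limit these results. Without 1 array, the knockout comparison called 440 to 2716 genes (129 to 1053 higher, 311 to 1663 lower), the control comparison 3669 to 4443 and the difference of the stage changes 0 to 43. Knockout calls numbered 2644 without the filter (1499 higher), 884 with a filter at the 75th percentile (196 higher, 688 lower), 2757 over every probe set (1788 lower), 3940 with the spread shared over 20 arrays (1703 higher, 2237 lower) and 5970 with a weight per array (2490 higher, 3480 lower). Quantile normalization gave 685 lower, and median centring 371 higher. The other settings stayed within 1.5 times of 1728: 1612 with the filter on the arrays compared, 1435 with the mean of probe sets, 1666 with a variance trend, 1704 with robust eBayes, 1524 with weights per group, 2054 with the retina covariate and 1918 without E17.5 replicates 24 and 27. Control calls numbered 7140 over every probe set and 2046 with the shared spread. The difference called 1 gene after quantile normalization, 13 without the filter, 8 with the stricter filter, 4 over every probe set, 1 with a variance trend and 21 without weights; a filter on the arrays compared is the same as the one used there. Of 121 named genes called, 52 stayed called in every other setting that gave a value (37 of them in all 24, and 15 in 22 or 23), 69 lost the call in at least 1, and with the mean of probe sets 2 changed sign, Txn1 to 0.02 and Id2 to -0.09. Where not given by fewer arrays or genes, the cause was not tested. No paired analysis was possible because the groups share no replicate number.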

Other observations

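Other gene groups gave these calls from E17.5 to birth in knockout lenses, where 5.8% of all genes rose and 8.77% fell. Of 31 proteasome genes 3 fell (9.68%), Psma1 by 0.40 ± 0.08, and of 26 autophagy and lysosome genes 3 rose (11.5%): Gabarapl1, of the autophagosome membrane, by 0.52 ± 0.11, Tfeb, the lysosomal transcription factor, by 0.45 ± 0.11, and Sqstm1, a cargo receptor, by 0.81 ± 0.21. These 3 rises were lost without P0 replicates 17 or 19. Of 30 genes of oxidative phosphorylation 1 fell (Ndufs1), and of 26 listed ribosomal protein genes, Rpl12 not among them, 1 fell (Rpl14). In controls, where 24.9% of all genes fell, these lists had 13 and 10 falls. In the heat shock list of 14, Bag3, a co-chaperone, rose by 0.93 ± 0.22 and Hspd1, the mitochondrial chaperonin, fell by 0.52 ± 0.11. Of 24 metallothionein and antioxidant genes Hmox1 rose and Txn1, thioredoxin, fell.

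Among signalling genes, Nrarp, a feedback inhibitor of Notch, fell by 0.76 ± 0.14 (limma adjusted p = 0.0118) and by 0.67 ± 0.13 in controls, and it was called without any one array. It was 1 of 3 falls in 21 Notch genes (14.3%). Of 24 BMP and TGF-beta genes 2 rose (8.33%), Grem1, a BMP antagonist, by 1.04 ± 0.27 and Id2, a BMP target, by 0.69 ± 0.18, and both calls were lost without P0 replicates 17, 18 or 19. Of 20 Wnt genes Fzd7, a receptor, fell, of 21 FGF and PDGF genes Pdgfra fell, and of 14 interferon response genes Tap1, a peptide transporter, rose. Of 15 membrane proteins of fibres Slc2a1 fell. Of 22 lens transcription factors 2 fell, Six5 by 0.37 ± 0.10 and Mab21l1 by 0.58 ± 0.16, with 10 falls without E17.5 replicate 28 and 0 without P0 replicates 17, 18 or 19. Pax6 and Prox1 had changes of -0.23 ± 0.18 and 0.24 ± 0.10 (limma adjusted p = 0.400 and 0.129).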
